A study of Homo sapiens with 9 samples.

Results

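The nuclear-encoded oxidative phosphorylation genes were 58 genes chosen by their gene number from a fixed list of subunits of the 5 respiratory chain complexes, and all 58 were among the 20575 genes with values in these Huh7 libraries. The list was set by gene function and did not use these values in its rule. They comprised 33 genes assigned to complex I, 4 of complex II, 6 of complex III, 10 of complex IV and 5 of ATP synthase (complex V). All 58 passed the filter on low values, which required a level of 1 CPM (counts of a gene scaled to the same total in each library) or more in 3 or more of the 9 libraries and left 12901 genes for testing. NDUFA4 was listed with complex I and is now counted with complex IV under the name COXFA4. ATP5A1, ATP5B, ATP5C1, ATP5F1 and ATP5O are now named ATP5F1A, ATP5F1B, ATP5F1C, ATP5PB and ATP5PO.

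Huh7 is an established line of human hepatocellular carcinoma cells. RNA was collected 48 h after transfection of an siRNA, with 3 libraries from cells given a control siRNA (siControl), 3 from cells given an siRNA against LATS1 (siLATS1) and 3 from cells given an siRNA against LATS2 (siLATS2). LATS1 and LATS2 are kinases of the Hippo pathway, and the study asked how the loss of each of them alters the transcriptome of these cells. The labels name no drug for these libraries, whereas the methods text of the study also speaks of Srf treatment, so the groups are named here by their siRNA. All 3 groups share the line, the medium and the transfection, and the study's methods call the replicates biological triplicates. Whether they came from separate cultures is in neither the labels nor the methods, so the p-values measure the spread between these libraries.

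Oxidative phosphorylation couples the transfer of electrons from NADH and succinate to oxygen with the pumping of protons across the inner mitochondrial membrane. Complex I oxidises NADH and complex II oxidises succinate, both pass electrons to ubiquinone, complex III hands them to cytochrome c, and complex IV reduces oxygen. ATP synthase lets the protons flow back and makes ATP. Most subunits are encoded in the nucleus, and a smaller set is encoded by mitochondrial DNA. The mitochondrially encoded subunits were not analysed here. Liver cells carry many mitochondria and express these genes at high levels.

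The libraries held between 23548247 and 32193525 reads counted over genes, as recovered from the step of 1 read in each file. LATS1, the gene targeted by siLATS1, stood at 110.0, 55.2 and 62.9 CPM in siControl, at 27.1, 20.1 and 15.6 CPM in siLATS1 and at 54.7, 78.6 and 51.2 CPM in siLATS2. All 3 siLATS1 values lay below all other values (log2 fold change -1.78 against siControl, adjusted p in limma = 0.126). LATS2 was not analysed here, so the siLATS2 label has no such check. Albumin, alpha-fetoprotein and the other hepatocyte markers averaged above 1 CPM each and summed to between 12029 and 22929 CPM per library. Of the markers of other cells, DCN, CD3E, VWF, CDH5 and KDR lay below 0.1 CPM on average. However, 3 of 5 fibroblast, 2 of 4 immune and 1 of 4 endothelial markers averaged 1 CPM or more. The fibroblast list summed to between 5.40 and 28.6 CPM, the immune list to between 16.8 and 19.4 CPM and the endothelial list to between 0.683 and 2.77 CPM. The first library of siControl (siControl rep1) stood apart from the other 8, with 4369 genes without reads against 3369 to 3804, and a median gene at 3.49 CPM against 5.62 to 7.39 CPM. Each comparison with siControl is therefore also given without it.

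Levels in siControl rep1 differed from those of its replicates along the share of G and C in the whole transcript. The starts of the coding sequences of 6 members are shown beside that share. These 6 are the 3 members that lay lowest and the 3 that lay highest in siControl rep1 relative to the other 2 siControl libraries. For each, the first 120 bases of the coding sequence of the MANE Select transcript on GRCh37 are given, with G and C in capitals and A and T in lower case. NDUFB7 (Entrez gene 4713, chr19:14676890-14682878, minus strand), NDUFS8 (Entrez gene 4728, chr11:67798084-67804111, plus strand) and NDUFA3 (Entrez gene 4696, chr19:54606036-54612564, plus strand) were the low ones. NDUFA5 (Entrez gene 4698, chr7:123177051-123197958, minus strand), ATP5C1 (Entrez gene 509, chr10:7830110-7849778, plus strand) and SDHD (Entrez gene 6392, chr11:111957548-111990739, plus strand) were the high ones.
NDUFB7: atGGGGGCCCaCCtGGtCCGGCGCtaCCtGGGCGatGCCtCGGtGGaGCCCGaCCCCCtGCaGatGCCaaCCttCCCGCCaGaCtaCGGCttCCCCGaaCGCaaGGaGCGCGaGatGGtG
NDUFS8: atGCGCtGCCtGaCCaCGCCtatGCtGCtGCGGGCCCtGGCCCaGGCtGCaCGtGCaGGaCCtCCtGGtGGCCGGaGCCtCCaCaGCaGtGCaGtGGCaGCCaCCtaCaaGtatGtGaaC
NDUFA3: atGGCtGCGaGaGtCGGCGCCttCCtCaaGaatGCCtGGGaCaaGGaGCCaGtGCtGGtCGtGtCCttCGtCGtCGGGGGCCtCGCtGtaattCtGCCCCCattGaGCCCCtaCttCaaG
NDUFA5: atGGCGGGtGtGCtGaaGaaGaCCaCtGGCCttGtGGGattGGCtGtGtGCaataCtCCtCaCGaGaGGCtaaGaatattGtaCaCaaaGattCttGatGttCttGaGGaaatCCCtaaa
ATP5C1: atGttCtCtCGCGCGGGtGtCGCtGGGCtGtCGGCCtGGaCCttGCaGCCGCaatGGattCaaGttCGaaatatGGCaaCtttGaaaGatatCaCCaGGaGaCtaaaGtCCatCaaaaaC
SDHD: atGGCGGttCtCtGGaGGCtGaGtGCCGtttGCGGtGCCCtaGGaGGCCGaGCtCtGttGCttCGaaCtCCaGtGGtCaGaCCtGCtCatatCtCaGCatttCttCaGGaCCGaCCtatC
Of these 120 bases, 83 were G or C in NDUFB7, 79 in NDUFS8 and 73 in NDUFA3, against 55 in NDUFA5, 60 in ATP5C1 and 68 in SDHD. Over the whole transcript the share of G and C (transcript GC) was 64.9% in NDUFB7, 63.5% in NDUFS8 and 56.0% in NDUFA3, and 34.6% in NDUFA5, 42.4% in ATP5C1 and 39.8% in SDHD. In SDHD the printed 120 bases held 56.7% G and C, so this stretch alone does not show its low transcript GC. Transcript GC was at hand for 57 members, all but NDUFB6, and their median was 46.9%.

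The members were well expressed in every group. In bulk RNA a lower level in every cell and fewer cells with the transcript cannot be told apart. All levels given here are CPM after scaling with TMM factors (trimmed mean of M values), which align libraries on the bulk of their genes. Between genes, levels are compared per kilobase of the MANE Select transcript. On this scale the medians of the complexes over 9 libraries were 76.7 CPM per kilobase in complex I, 65.3 in complex II, 103 in complex III, 188 in complex IV and 151 in complex V. Within complex I, NDUFS5, an accessory subunit, had the highest level per kilobase (284) and NDUFV3, an accessory subunit of the NADH-oxidising module, the lowest (6.63). In complex II the iron-sulfur subunit SDHB led with 122 CPM per kilobase and the membrane anchor SDHD was lowest with 46.4. In complex III the small subunit UQCRH reached 182 and UQCRB 30.2 CPM per kilobase. COX4I1, a regulatory subunit of cytochrome c oxidase, stood at 514 CPM per kilobase, the highest of all 57 members with a length, and COX7B at 45.4, the lowest of complex IV. ATP5B, the catalytic beta subunit of ATP synthase, stood at 432 CPM per kilobase and ATP5F1, a subunit of the peripheral stalk, at 62.0. The order depends on the length used, since several low members have long untranslated ends. Per kilobase of coding sequence the highest members were NDUFA4, SDHC, UQCRB, COX7C and ATP5B, so UQCRB moved from the lowest to the highest place in complex III.

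Reads were ample for nearly all values. The recovered reads per member and library had a median of 2781 and reached 26260 in ATP5A1. The lowest value was 1 read, for NDUFB7 in siControl rep1, and the next lowest value of any other member was 27 reads. Pseudogenes named after the gene are annotated for 39 of the 58 members, most often for COX6C with 17. The authors kept only reads with 1 hit in the genome, and how many reads of these members that rule removed was not tested.

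**Figure D1:**
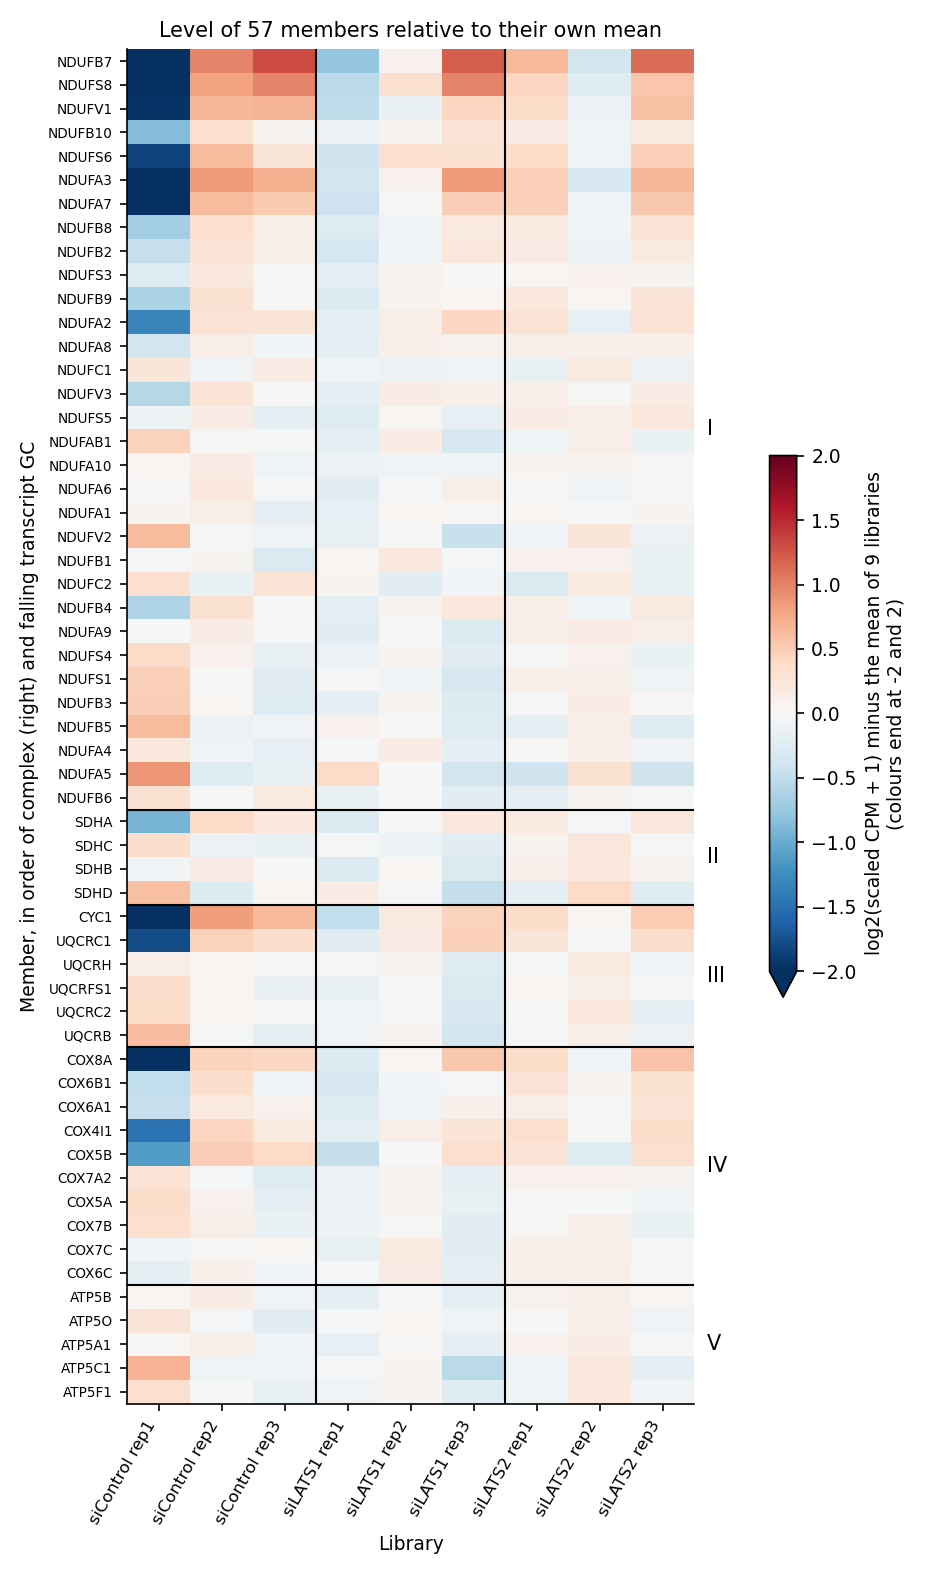
Each row is 1 of 57 members and each column a library, and the colour gives log2(scaled CPM + 1) minus the mean of the 9 libraries for that member, with the scale ending at -2 and 2. Members are ordered by complex and, within it, by falling transcript GC (NDUFB6, without a GC value, last in complex I). The dark blue cells lie in the siControl rep1 column at the GC-rich end of complexes I, III and IV, while ATP synthase shows none in that column.

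The libraries of siControl were compared first, since their spread sets what can be seen between groups. In siControl rep1 31 members lay below and 27 above the mean of the other 2 siControl libraries. Their median difference was -0.06 on the log2(CPM + 1) scale. Of all 12901 tested genes 5945 lay below and 6956 above 0, with a median of 0.12. Single members differed by much more, from -5.35 to 1.09. NDUFB7, an accessory subunit of the membrane arm of complex I, was at 0.0439 CPM in siControl rep1 and at 37.2 and 46.4 CPM in rep2 and rep3. NDUFS8, a core subunit that carries iron-sulfur clusters, was at 8.78 CPM against 166 and 185 CPM. NDUFA3, another accessory subunit of complex I, was at 1.19 CPM against 29.0 and 26.3 CPM. At the other end NDUFA5, an accessory subunit of the peripheral arm, was at 108 CPM in rep1 and at 48.0 and 52.3 CPM in rep2 and rep3. ATP5C1, the gamma subunit that forms the rotating shaft of ATP synthase, was at 264 CPM against 153 and 155 CPM, and SDHD at 92.5 CPM against 50.1 and 62.1 CPM. The same library was thus the lowest of its group for the first 3 genes and the highest for the other 3. With 1 library on one side no test of this difference was made.

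By complex, the median difference of siControl rep1 was -0.10 in complex I, 0.17 in complex II, 0.25 in complex III, -0.41 in complex IV and 0.38 in complex V. In complex V all 5 subunits were above 0, and the 2 most abundant of them hardly differed. ATP5A1, the alpha subunit, was at 782, 840.0 and 726 CPM in the 3 siControl libraries, and ATP5B at 778, 838 and 719 CPM. Complex III was divided instead. CYC1, cytochrome c1, was at 21.4 CPM in siControl rep1 against 234 and 205 CPM, and the core protein UQCRC1 at 45.4 against 221 and 204 CPM, whereas the other core protein UQCRC2 was at 237 CPM against 189 and 179 CPM. In complex II, SDHA, the flavoprotein that oxidises succinate, was at 74.1 CPM against 185 and 165 CPM, while SDHC, a membrane anchor, was at 127 CPM against 91.4 and 90.5 CPM. In complex IV COX4I1 was at 132 CPM against 497 and 419 CPM. Subunits of 1 complex, which are needed together in the assembled enzyme, thus differed in opposite directions in this library.

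The difference of siControl rep1 moved with transcript GC. Pearson's r was -0.86 over the 57 members and -0.88 over 11694 tested genes with a GC value. These are correlations across genes of the same libraries, genes are not independent replicates, and no p is given. None of the 6 members under 40% GC lay below 0, and their median difference was 0.71. The median was 0.36 for the 14 members from 40% to 45% GC, 0.10 for the 14 from 45% to 50% and -0.67 for the 13 from 50% to 55%, of which 12 lay below 0. All 10 members at 55% GC or more lay below 0, with a median of -2.72. The medians of all tested genes in these bins were 0.90, 0.62, 0.18, -0.45 and -1.71, falling from bin to bin as those of the members did. In each bin the median of the members was the lower one. Transcript length moved less closely with the difference, with r of 0.30 to log2 length over the members and 0.29 over all genes. What links transcript GC and the levels of this library was not tested.

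**Figure D2:**
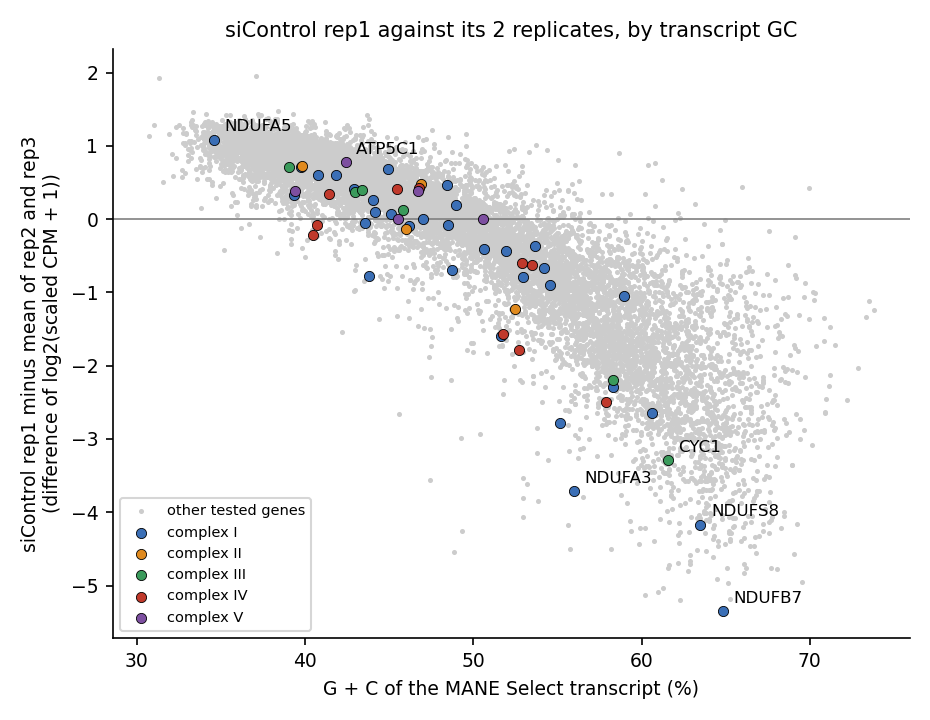
The difference of siControl rep1 from the mean of siControl rep2 and rep3, on the log2(scaled CPM + 1) scale, is plotted against transcript GC in percent for 57 members, coloured by complex, and in grey for the other tested genes. The members fall from 1.09 for NDUFA5 to -5.35 for NDUFB7 within the grey cloud and along its lower edge.

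The same axis ran through the other libraries at a smaller size. The mean log2 level of the 10 members at 55% GC or more (NDUFA3, NDUFA7, NDUFB7, NDUFB10, NDUFV1, NDUFS6, NDUFS8, UQCRC1, CYC1 and COX8A) minus that of the 6 under 40% GC (NDUFA4, NDUFA5, NDUFB5, SDHD, UQCRB and ATP5F1) was -3.76, -0.06 and -0.15 in the siControl libraries. It was -1.33, -0.77 and 0.07 in siLATS1, and -0.32, -1.18 and -0.10 in siLATS2. The 3 groups overlapped in this measure, and each held libraries near 0 and 1 or more well below it. For all 10 GC-rich members siControl rep1 was the lowest and siLATS1 rep1 the second lowest of the 9 libraries, and for 9 of the 10 siLATS2 rep2 was the third lowest. For all 6 GC-poor members siControl rep1 was the highest. Summed, the 10 GC-rich members gave 194 CPM in siControl rep1 and between 630 and 1304 CPM in the other 8 libraries.

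The spread within siControl was accordingly wide for the GC-rich members. The highest value divided by the lowest exceeded 2 in 16 of 58 members in siControl, in 3 in siLATS1 and in 2 in siLATS2, and the median ratio was 1.54, 1.27 and 1.19. Because 1 estimate of the spread was shared over the 3 groups for each gene, this spread also entered the comparison of siLATS1 with siLATS2.

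siLATS1 was compared with siControl to see whether the loss of LATS1 changed these genes. None of the 58 members passed an unadjusted p under 0.05 with an absolute log2 fold change of at least 0.58, the threshold of the study's methods, against 2.91% of all tested genes (2.33% higher and 0.589% lower). None passed an unadjusted p under 0.05 alone, which 5.78% of all genes did (4.33% higher and 1.45% lower). An adjusted p under 0.05 was met by 0.101% of all genes and by no member, and the lowest adjusted p of a member was 0.979 in limma. With edgeR and DESeq2 on the recovered reads 0 members passed after adjustment, and 0 and 1 had an unadjusted p under 0.05. The median log2 fold change of the members was -0.06 against 0.02 for all genes, and 37 of 58 members were below 0, against 47.2% of all genes. Without TMM scaling 26 of 58 were below 0 and the median of all genes was 0.10, so the side on which most members lay depends on the scaling. With TMM the medians were -0.03 in complex I, -0.19 in complex II, -0.17 in complex III, -0.04 in complex IV and -0.15 in complex V, where all 5 subunits were below 0.

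The 3 lowest fold changes were those of NDUFV2, ATP5C1 and NDUFB6. NDUFV2, an iron-sulfur subunit of the NADH-oxidising module, was at 162, 102 and 98.4 CPM in siControl and at 94.3, 103 and 76.4 CPM in siLATS1 (log2 fold change -0.37 ± 0.22 SE). ATP5C1 was at 160.3, 168 and 111 CPM in siLATS1 (-0.35 ± 0.26). For both genes the groups overlapped. NDUFB6, an accessory subunit of the membrane arm, was at 35.0, 28.2 and 32.5 CPM in siControl and at 25.7, 28.2 and 24.3 CPM in siLATS1, just without overlap (-0.28 ± 0.15). UQCRC2 was the other member without overlap, at 173, 178.8 and 149 CPM in siLATS1 against 179.2 CPM in the lowest siControl library (-0.27 ± 0.16). These 2 members, both lower, stand against 2.71% of all genes that were lower in siLATS1 without overlap, and no member was higher without overlap, against 5.77% of all genes. For such a pair of groups of 3 the exact two-sided permutation p cannot fall below 0.1.

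The 3 highest fold changes belonged to the members that were lowest in siControl rep1. NDUFB7 was at 10.3, 19.5 and 43.8 CPM in siLATS1 (log2 fold change 0.82, 95% confidence interval -2.25 to 3.90), NDUFS8 at 64.4, 117 and 188 CPM (0.75 ± 1.03 SE) and NDUFA3 at 11.9, 16.8 and 29.1 CPM (0.65 ± 0.93 SE). In each case all 3 siLATS1 values lay above siControl rep1 and the highest of them came close to the higher siControl values. Across the 57 members with GC, r between the log2 fold change and transcript GC was 0.78 with all libraries and -0.81 without siControl rep1, so the sign of this relation turned on 1 library.

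Without siControl rep1, 2 members passed the threshold, both lower in siLATS1, against 5.67% of all genes in either direction and 3.04% lower. NDUFV1, the subunit that binds NADH and FMN, was at 331 and 333 CPM in siControl rep2 and rep3 and at 146, 189 and 280.5 CPM in siLATS1 (log2 fold change -0.76, adjusted p in limma = 0.322). CYC1 was at 234 and 205 CPM against 92.8, 149 and 179 CPM (-0.70, adjusted p in limma = 0.327). With all 9 libraries the fold changes of the same genes were 0.14 and 0.41, so both changed sign. Neither passed after adjustment, and 52 of 58 members were below 0 without siControl rep1. The median of the members was then -0.14 against -0.01 for all genes, and the share of all genes below 0 was not counted in this fit.

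The precision differed by gene. For 26 of 58 members (12 of 33 in complex I, 2 of 4 in complex II, 1 of 6 in complex III, 7 of 10 in complex IV and 4 of 5 in complex V) the 95% confidence interval of the log2 fold change lay within -0.58 and 0.58, and for 32 it reached past one of these bounds. The interval was -0.34 to 0.28 for NDUFA1, an accessory subunit needed for complex I assembly, whose values were 75.1, 79.3 and 64.0 CPM in siControl and 64.8, 74.8 and 73.9 CPM in siLATS1. It was -0.41 to 0.13 for ATP5A1 and -0.42 to 0.11 for ATP5B. NDUFB8, a membrane arm subunit often used as a marker of complex I, could not be placed as closely, with an interval of -0.57 to 0.64. NDUFS1, the largest core subunit, had -0.65 to 0.23, SDHA -0.64 to 0.84 and COX4I1 -0.66 to 1.37. For UQCRC1 it was -0.78 to 1.71.

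The levels behind these intervals show the same split. NDUFS1 was at 228, 162 and 140.2 CPM in siControl, at 164, 155 and 131 CPM in siLATS1 and at 175, 178 and 154 CPM in siLATS2. NDUFB8 was at 47.8, 97.2 and 82.5 CPM, then at 64.2, 73.0 and 87.9 CPM, and at 87.1, 73.7 and 93.5 CPM. In the former siControl rep1 was the highest and in the latter the lowest of 9 libraries, and the siLATS1 and siLATS2 values overlapped siControl for both. SDHA was at 118, 143 and 165 CPM in siLATS1 and at 162, 139.6 and 166 CPM in siLATS2, and SDHC at 96.6, 91.9 and 84.4 CPM and at 104, 116 and 95.9 CPM. UQCRC1 was at 136, 179 and 222 CPM in siLATS1 and at 189, 159 and 204 CPM in siLATS2. COX4I1 was at 323, 404 and 442 CPM in siLATS1 and at 465, 371 and 476 CPM in siLATS2. All of these genes had overlapping groups in each of the 3 comparisons. ATP5A1, with 685, 779 and 673 CPM in siLATS1 and 816, 846 and 771 CPM in siLATS2, had the same pattern as ATP5B but with a slight overlap.

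**Figure D3:**
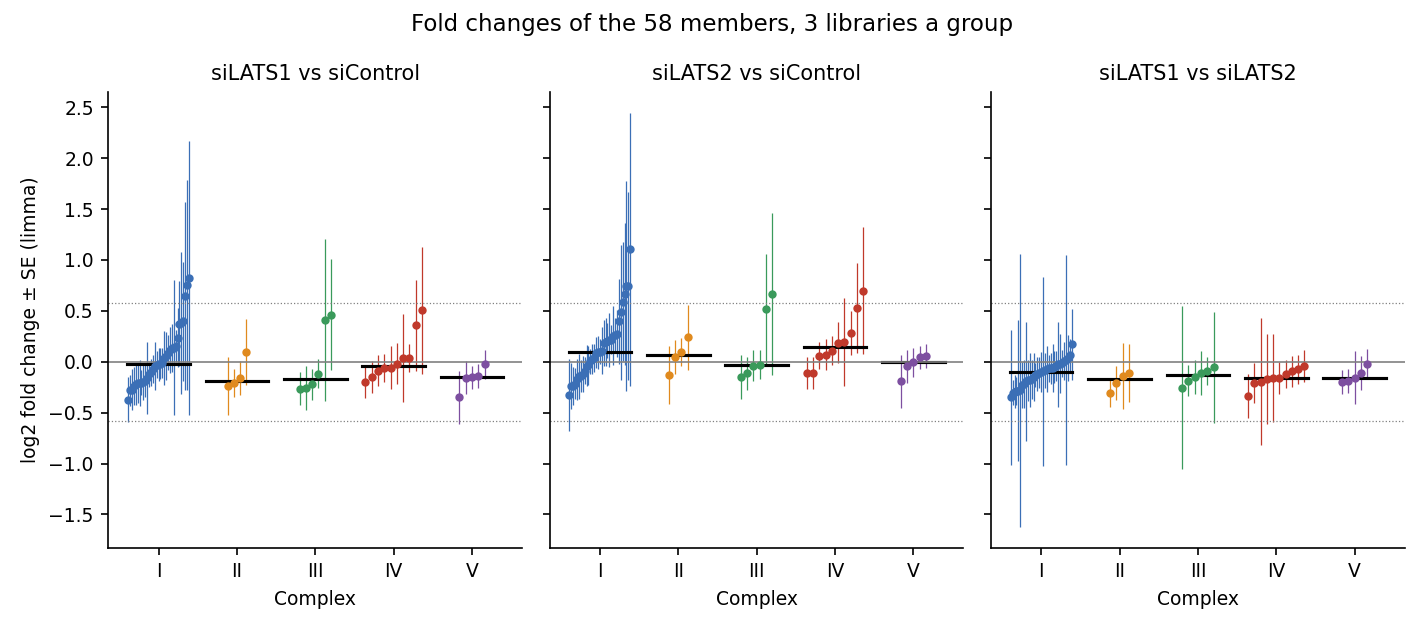
The log2 fold change of each of the 58 members with its standard error (bars) is shown by complex for 3 comparisons of 3 libraries with 3, with the median of each complex as a black line and dotted lines at -0.58 and 0.58. In both comparisons with siControl the highest points carry the longest bars, and in siLATS1 against siLATS2 53 of 58 points lie below 0 but all within 0.35 of it.

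siLATS2 was compared with siControl in the same way. None of the 58 members passed the threshold, against 0.271% of all genes (0.217% higher and 0.0543% lower), and none had an unadjusted p under 0.05, against 0.853% (0.651% higher and 0.202% lower, lowest adjusted p of a member 0.950 in limma). With edgeR and DESeq2 on the recovered reads no member had an unadjusted p under 0.05 either. The median log2 fold change was 0.08 against 0.03 for all genes. Of the members 37 were above and 21 below 0, against 45.1% of all genes below 0, and no member separated the groups. Of all genes, 2.87% were higher and 0.643% lower without overlap. By complex the medians were 0.10, 0.07, -0.03, 0.15 and -0.01 from complex I to complex V. Without siControl rep1 the median of the members was -0.01, against 0.02 for all genes, and 31 of 58 members were below 0. No member passed the threshold then either, against 0.536% of all genes (0.303% lower).

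The highest values were again those of NDUFB7 (1.10 ± 1.34 SE), NDUFA3 (0.74 ± 0.93) and NDUFS8 (0.74 ± 1.03). In siLATS2 NDUFB7 was at 29.1, 14.0 and 40.6 CPM, within the range of siControl. The lowest were NDUFA5, at 43.6, 71.5 and 43.6 CPM (-0.33 ± 0.35), NDUFB5, an accessory subunit of the membrane arm, at 50.8, 63.3 and 48.8 CPM (-0.24 ± 0.23), and NDUFC2, a small subunit of complex I, at 53.2, 74.8 and 59.2 CPM (-0.24 ± 0.19). The siControl values of NDUFB5 were 89.4, 52.7 and 55.4 CPM and those of NDUFC2 82.8, 59.4 and 79.6 CPM, so for each of these genes siControl rep1 was the highest of its group. The interval lay within -0.58 and 0.58 for 27 of 58 members, among them NDUFS1 (-0.48 to 0.41), ATP5A1 (-0.22 to 0.32) and ATP5B (-0.22 to 0.31). The comparisons of siLATS1 and of siLATS2 with siControl share the siControl libraries, and their fold changes are therefore not independent.

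siLATS1 and siLATS2 were also compared directly, a contrast without siControl libraries. No member passed the threshold, against 1.86% of all genes (1.34% higher and 0.519% lower), nor did any without siControl rep1, against 2.38% (0.746% lower). NDUFA9, an accessory subunit of complex I close to the ubiquinone site, was the 1 member with an unadjusted p under 0.05, against 3.91% of all genes (2.43% higher and 1.48% lower). In edgeR and in DESeq2 the number was also 1. In other fits it differed, with all such members lower. It was 4 with only the 6 libraries compared (against 5.97% of all genes in either direction). Without siControl rep1 it was 3 (against 7.45%), with the replicate number as a block 2 (against 4.36%) and without TMM 0 (against 4.28%). NDUFA9 was at 113, 131 and 109 CPM in siLATS1 and at 143, 148 and 143 CPM in siLATS2 (log2 fold change -0.30 ± 0.12 SE, unadjusted p = 0.0388, adjusted p in limma = 1.0). The values did not overlap, but the gene did not pass after adjustment.

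In this contrast 53 of 58 members were below 0, that is lower in siLATS1, with a median of -0.12 and a range of -0.35 to 0.17. Of all tested genes 57.7% were below 0, with a median of -0.03. Below 0 were 28 of 33 members of complex I, 4 of 4 of complex II, 6 of 6 of complex III, 10 of 10 of complex IV and 5 of 5 of complex V, with medians of -0.10, -0.17, -0.13, -0.16 and -0.16. Without TMM scaling 40 of 58 members were below 0 and the median of all genes was 0.04. With the median-of-ratios scaling 52 of 58 were below 0. Leaving out 1 library at a time gave 45 to 55 of 58. The sizes were small against the error of single genes, whose median SE was 0.20, and members of 1 library share its scaling, so their number is no count of independent observations.

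In 7 members all siLATS1 values lay below all siLATS2 values, against 6.63% of all genes, and in no member was the reverse true, against 5.8% of all genes. NDUFA9, SDHB, COX6B1 and ATP5B were among them. SDHB was at 101, 127 and 101 CPM in siLATS1 against 133, 143 and 130.2 CPM in siLATS2 (log2 fold change -0.30 ± 0.14 SE). COX6B1, a subunit of cytochrome c oxidase on the intermembrane space side, was at 164, 197 and 203 CPM against 246, 212 and 254 CPM (-0.34 ± 0.21 SE). ATP5B was at 670.4, 763 and 665 CPM against 798, 821 and 782 CPM (-0.20 ± 0.11 SE). The gap between the groups was narrow for SDHB, COX6B1 and ATP5B, and none of the 7 had an adjusted p under 0.05.

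The lowest fold change belonged to NDUFV1 (-0.35 ± 0.66 SE), which was at 146, 189 and 280.5 CPM in siLATS1 and at 268, 191 and 313 CPM in siLATS2, with overlap. The highest were NDUFA5 (0.17 ± 0.35 SE), NDUFB1, a small accessory subunit, at 33.2, 37.3 and 31.6 CPM against 34.2, 34.2 and 29.1 CPM (0.06 ± 0.16 SE), and NDUFB5 (0.03 ± 0.23 SE). The interval lay within -0.58 and 0.58 for 25 of 58 members. The fold change moved only weakly with transcript GC here (r = -0.36 over 57 members).

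**Figure D4:**
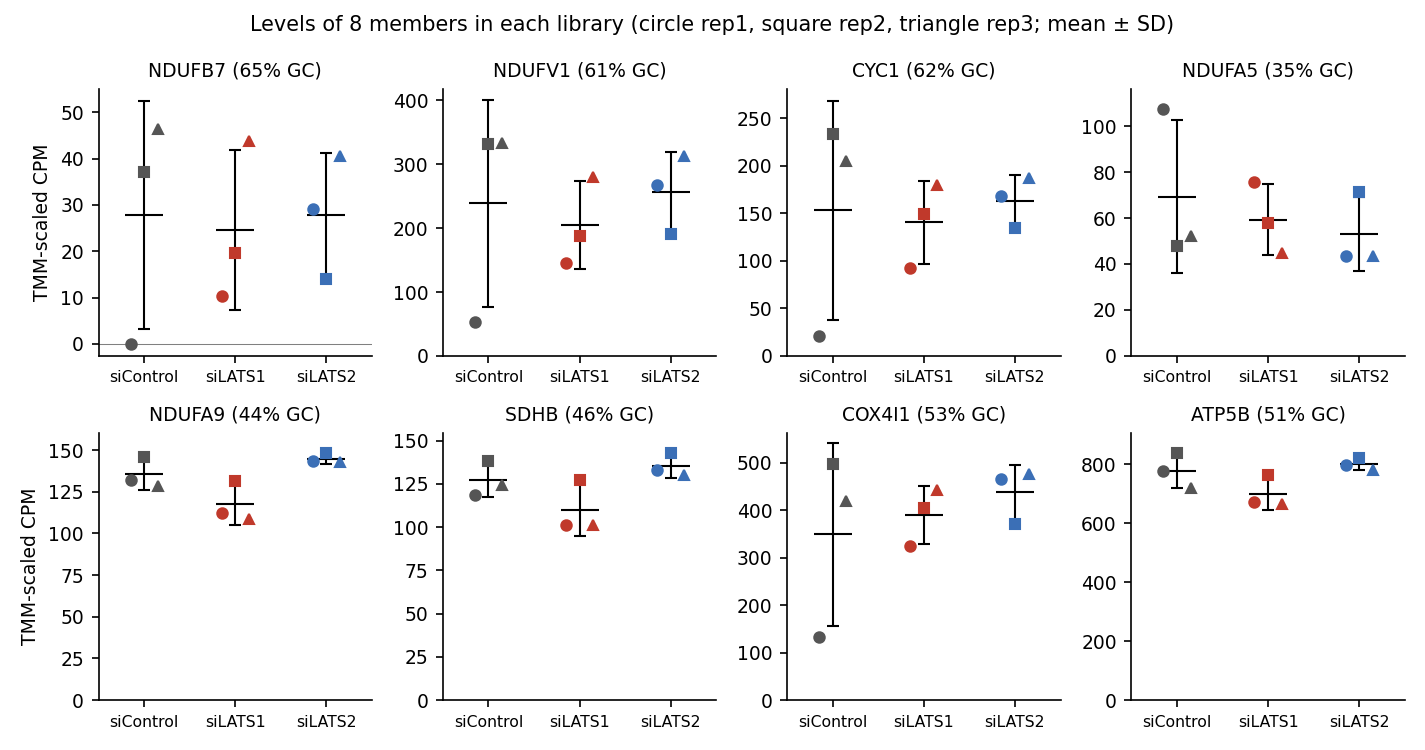
Scaled CPM of 8 members in each library are shown with the mean and SD of each group of 3 (bars), with transcript GC in the titles and a linear axis from 0. siControl rep1 (circle) lies far below its replicates for NDUFB7, NDUFV1, CYC1 and COX4I1 and above them for NDUFA5, while NDUFA9, SDHB and ATP5B are lower in all 3 siLATS1 than in all 3 siLATS2 libraries.

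To see the members beside this axis, a smooth curve of each library's deviations on transcript GC, fitted over all 11694 genes with GC, was subtracted. This correction was chosen after the relation had been seen. The SD of the siControl rep1 difference over 57 members fell from 1.37 to 0.70, with 43 of 57 below 0 and a median of -0.18. Over all 11694 genes the SD fell from 1.22 to 0.54, with 5357 below 0 and a median of 0.03. The members thus stayed lower and more spread than all genes after the correction. NDUFB7 (-2.95), NDUFA3 (-2.56), NDUFS8 (-1.90) and NDUFA7 (-1.79) were then the lowest, whereas NDUFA5 came to 0.10. In siLATS1 against siControl 5 members then had an unadjusted p under 0.05, all lower, against 18.3% of genes in either direction and 9.54% lower. They were NDUFB2, NDUFV2, UQCRC2, ATP5B and ATP5C1, with log2 fold changes of -0.20, -0.35, -0.21, -0.21 and -0.29. In siLATS1 against siLATS2 7 members did, all lower, against 13.9% in either direction and 6.85% lower, among them SDHB (-0.29), COX6B1 (-0.29) and COX6A1 (-0.16). In siLATS2 against siControl there were 0, against 3.76% of all genes (1.99% lower). No member passed the fold threshold or an adjusted p under 0.05 in any of the 3 comparisons. Of all genes, 2.21% passed an adjusted p under 0.05 in siLATS1 against siControl, 0.924% in siLATS1 against siLATS2 and 0 in siLATS2 against siControl. Against siControl, the lowest adjusted p of a member in limma was 0.156 for siLATS1 and 0.943 for siLATS2.

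With the correction and without siControl rep1, 13 members had an unadjusted p under 0.05 in siLATS1 against siControl. In siLATS1 against siLATS2 14 members did, and in siLATS2 against siControl 2. All of these were lower, against 26.4%, 21.1% and 5.76% of all genes in either direction. The share of all genes that were lower was not counted in this setting, so no share for 1 direction stands beside these counts. NDUFV1 alone passed an adjusted p under 0.05. Its log2 fold change was -0.43 in siLATS1 against siControl (adjusted p in limma = 0.00852, against 7.02% of genes passing) and -0.27 in siLATS1 against siLATS2 (adjusted p = 0.0469, against 3.48%). It did not reach 0.58 in either. The next member in the first comparison was UQCRC2 (-0.27, adjusted p = 0.0609). NDUFV1 was chosen here after its value was seen under this setting, in which the correction and the omission of a library were both decided with the data known.

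Genes around the respiratory chain were counted from lists of other subunits, assembly factors, enzymes of the tricarboxylic acid cycle and regulators of mitochondrial genes. Among 22 tested other subunits, 25 assembly factors and 12 cycle enzymes, 0 passed the threshold in any of the 3 comparisons, against the shares of all genes given above. ATP5G3, a c-ring subunit of ATP synthase, was the 1 gene of these with an unadjusted p under 0.05, lower in siLATS1 than in siControl. It was at 526, 479 and 496 CPM in siControl, at 415, 441 and 376 CPM in siLATS1 and at 459.8, 550.5 and 484 CPM in siLATS2 (log2 fold change -0.29, adjusted p in limma = 0.849). In siLATS1 against siLATS2, 21 of 22 other subunits, 21 of 25 assembly factors and 12 of 12 cycle enzymes were below 0, as were 85 of 85 cytosolic ribosomal protein genes, so the side on which the members lay was shared with genes outside the mitochondrion.

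Of 14 regulators, PPARGC1B, a coactivator that promotes mitochondrial gene expression, was the 1 that passed the threshold, in siLATS1 against siControl. Of all genes, 2.91% passed it there (2.33% higher and 0.589% lower). PPARGC1B was low in level and lower in siLATS1 than in siControl, at 3.76, 5.65 and 3.57 CPM against 6.37, 9.44 and 7.82 CPM (log2 fold change -0.74, adjusted p in limma = 0.499), with siLATS2 at 5.56, 7.25 and 4.98 CPM. TFAM, which packages mitochondrial DNA, takes part in its transcription and has 36.0% transcript GC, was at 143, 62.9 and 76.6 CPM in siControl. POLRMT, the mitochondrial RNA polymerase, with 66.1% GC, was at 2.90, 44.99 and 48.6 CPM there. In siControl rep1 TFAM was thus high and POLRMT low, as were the GC-poor and the GC-rich members. TFAM and POLRMT were chosen after their values were seen. Over all 14 regulators the siControl rep1 difference ran from -3.62 to 1.07, with 6 below and 8 above 0. How it moved with transcript GC over the 14 was not tested. None of the 14 passed after adjustment.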

How the data were processed

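RNA-seq libraries of 9 Huh7 samples in 3 groups of 3 were analysed. By the labels and the study's methods, the authors aligned single-end reads to hg19 (GRCh37) with STAR, kept unique hits, counted them over RefSeq exons and deposited CPM per gene for each sample. The labels name a stranded total RNA kit with ribosomal depletion, and the study's methods speak of Poly-A+ RNA. Whole reads were recovered from the deposited CPM (100% of values whole within 0.05). A blank row in each file was left out. Of 20575 gene numbers, 20474 matched a symbol, and transcript length and GC were taken from MANE Select transcripts in GENCODE on GRCh37.

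CPM were scaled by TMM factors over all genes. Genes reaching 1 CPM in 3 or more samples entered the test, and log2(CPM + 1) was fitted with limma 3.58.1 (R 4.3.3) over all 9 samples with 1 mean per group and Benjamini-Hochberg adjustment. With this pseudocount of 1, the fold changes of low genes come out too small. The threshold was an unadjusted p under 0.05 with an absolute log2 fold change of at least 0.58. Alternatives were other scalings, filters and pseudocounts, edgeR 4.0.16 and DESeq2 1.42.0 on recovered reads, a replicate block, leaving out each library and, added after seeing the data, a GC correction (natural spline, 5 degrees of freedom, per library). The fitting code was tested on simulated data. Genes named in the text were 12 subunits given with the list, the 3 highest and 3 lowest fold changes and siControl rep1 differences, members past the threshold, and the highest and lowest levels per kilobase in each complex; other members were chosen after their values were seen. The members and lists were chosen with earlier results of these data known. The heat map leaves out 1 member, which counts in the totals and is not reported here by name.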

Additional observations from a re-analysis of the deposited data

How the results depend on the processing

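The number of members past the threshold stayed at 0 in every alternative and comparison run except without siControl rep1, where it was 2 in siLATS1 against siControl (0 to 2 over the leave-one-out fits), with NDUFV1 at -0.76 and CYC1 at -0.70, both reversed (-0.76 to 0.56 for NDUFV1 and -0.70 to 0.96 for CYC1 when 1 library was left out). For all genes, 376 passed in siLATS1 against siControl (221 to 730 when 1 library was left out, 221 without siLATS1 rep3 and 730 without siControl rep1), 35 in siLATS2 against siControl (11 to 69, 11 without siLATS2 rep3, 67 without siLATS2 rep2, and 69, 55 and 54 without siControl rep1, rep2 and rep3) and 240 in siLATS1 against siLATS2 (189 to 306). With adjusted p-values these were 13, 0 and 0 (for an adjusted p under 0.05 alone, 0 to 40, 0 to 0 and 0 to 19 when 1 library was left out, with 40 and 19 without siControl rep1, 1 in siLATS1 against siControl without siLATS2 rep2 or rep3, and otherwise 0), where the unadjusted p under 0.05 was met by 746, 110 and 505 genes. For siLATS2 against siControl the number was 72 with a pseudocount of 0.1, 21 with only the 6 libraries compared, 68 with edgeR, 70 with DESeq2 and 60 with the GC correction without siControl rep1, and the cause was not tested. Adjusted p-values under 0.05 were found for 5, 0 and 0 genes with edgeR and 188, 0 and 117 with DESeq2, none of them members. The member median ranged from -0.14 to -0.03, from -0.01 to 0.09 and from -0.17 to -0.07 in the 3 comparisons when 1 library was left out. Without TMM it was 0.03, 0.09 and -0.05, so it changed sign in siLATS1 against siControl. In siLATS2 against siControl it was -0.047 with the GC correction without siControl rep1, and the siControl rep1 median moved from -0.06 to -0.18 with the GC correction, to -0.14 with median-of-ratios scaling and to -0.11 without TMM. Of 4020 values of single members, complex medians and smaller counts, 3900 were classed as the same, 118 as moved and 2 as reversed, the reversals above. For a member that passed the threshold in neither fit, the same meant a shift below its SE, whatever the sign. Changes of sign below the threshold were not classed as reversals and were more frequent. In siLATS1 against siControl 37 of 58 members were below 0 in the main fit, 52 without siControl rep1 and 26 without TMM.

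With the replicate number as a block, 400, 46 and 256 genes and 0 members passed the threshold, and 0 genes had an adjusted p under 0.05 in any comparison. Same-numbered libraries deviated together in some pairs and not in others (r across genes from -0.87 to 0.92). The deviations themselves moved with transcript GC (r from -0.88 in siControl rep1 to 0.88 in siControl rep2). These pairs therefore cannot show whether same-numbered libraries were handled together, and this was not tested.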
